A study of Caenorhabditis elegans with 33 samples.

Results

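The vitellogenin genes of Caenorhabditis elegans encode the precursors of yolk protein, and they are described here as a family of 6: vit-1 (K09F5.2), vit-2 (C42D8.2), vit-3 (F59D8.1), vit-4 (F59D8.2), vit-5 (C04F6.1) and vit-6 (K07H8.6). They were taken by sequence name from the 20517 genes of the mRNA table, and all 6 had values in every library. In late L4 larvae mutant for alg-1 or alg-2, vit-3, vit-4 and vit-5 rose from near 0 FPKM in wild type to several FPKM, and in alg-1(gk214) vit-2 and vit-6 rose as well. Neither alg-5 allele changed any of the 6 past the test. vit-1 did not rise in any mutant, and was lowest in alg-2(ok304).

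Vitellogenins are large lipid-binding proteins that the hermaphrodite intestine makes in bulk from the onset of adulthood, secretes into the body cavity and so supplies to the growing oocytes, which take them up through the receptor RME-2. The genes vit-1 to vit-5 lie on the X chromosome and encode the YP170 proteins, whereas the autosomal gene vit-6 encodes a precursor that is cut into YP115 and YP88. Their onset at the end of larval life is under control of the heterochronic pathway, in which miRNAs silence larval timing genes such as lin-14 and the transcription factor LIN-29 then acts in the hypodermis. ALG-1 and ALG-2 are the main Argonaute proteins of the miRNA pathway in the worm, and ALG-5 is a related Argonaute.

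Messenger RNA was measured in whole worms of 5 genotypes with 3 libraries each: wild type N2, alg-5(tm1163), alg-5(ram2), alg-2(ok304) and alg-1(gk214). Animals were grown at 20 °C on E. coli OP50 and frozen 49 h after L1 synchronization, except alg-1(gk214), which was taken at 53 h so that its stage matched. Genotype and collection time therefore cannot be told apart for alg-1(gk214), whereas alg-2(ok304) and both alg-5 alleles share the wild type time. Small RNA was measured in 18 libraries from the same strains and from strains with tagged Argonautes, in late L4 larvae at 49 h and gravid adults at 68 h. The labels do not say whether the 3 libraries of a genotype came from separate cultures, so each p-value measures only the spread between these libraries, which may be technical.

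Values are FPKM, fragment counts scaled by transcript length and by sequencing depth, which allows levels of different genes to be set side by side. FPKM sums were 1182262 to 1299326 per library, and the read depth behind them is unknown. Changes are differences of log2(FPKM + 1), which understate the change of a low gene, and a gene is said to have risen or fallen when its Benjamini-Hochberg adjusted p over the 15174 tested genes is under 0.05. Transcripts of the mutated gene were lower in 3 of the 4 mutants: alg-1 was at 10.7, 16.3 and 12.1 FPKM in alg-1(gk214) against 28.9 to 32.7 in wild type. alg-2 was at 1.94, 2.15 and 2.10 FPKM in alg-2(ok304) against 13.3 to 17.2. alg-5 was at 0.557, 0.996 and 0.607 FPKM in alg-5(ram2) against 8.03 to 10.3, but at 9.84, 11.8 and 9.11 in alg-5(tm1163), where the transcript level gives no check of the label. The whole-worm libraries held the intestine's transcripts at high levels, with asp-1, an intestinal aspartyl protease, at a mean of 7502 FPKM in wild type. Among the 10 genes of the embryo list, pes-10, end-1 and hlh-27 were listed at 0 in all 15 libraries, and the others were above 0 in at least 1. elt-6 had genotype means of 4.98 to 8.48 FPKM, and nos-2 had a mean of 4.42 FPKM in alg-1(gk214).

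Wild type late L4 larvae held 1 vitellogenin transcript at a clear level. vit-6 measured 32.2, 32.1 and 23.4 FPKM, at percentile 77.6 of all genes by its mean. vit-1 measured 4.24, 6.47 and 4.05 FPKM and vit-2 measured 3.21, 4.10 and 4.66 FPKM, so these 2 genes overlapped and lay well under vit-6. vit-3 was below 1 FPKM in every wild type library, at 0.720, 0.891 and 0.518. vit-4 was at 0.0172, 0.420 and 0.0108 FPKM, and vit-5 at 0.0423, 0.0343 and 0.0216 FPKM. The order by mean was thus vit-6, vit-1, vit-2, vit-3, vit-4 and vit-5, in which vit-1 and vit-2 do not differ beyond their spread, nor do vit-4 and vit-5. vit-3, vit-4 and vit-5 were under 1 FPKM in wild type and in both alg-5 alleles, so they entered the test through their levels in alg-1(gk214) and alg-2(ok304). In the RefSeq annotation of the assembly WBcel235 vit-3 and vit-4 are neighbours, and vit-3, vit-4 and vit-5 are near-identical in sequence. How fragments were split among these 3 genes is therefore uncertain, and their sum is given beside them.

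**Figure D1:**
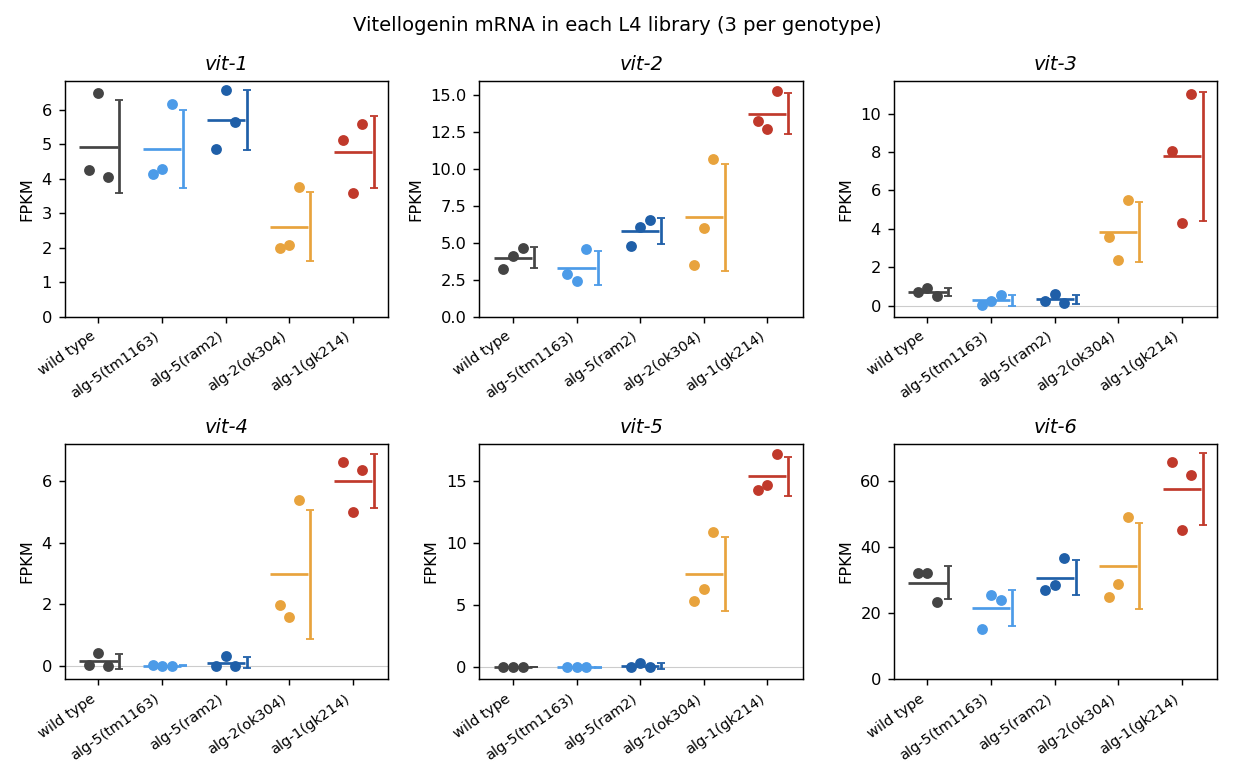
FPKM (y axis, linear, a scale of its own for each gene) of the 6 vitellogenin genes in each of the 3 libraries of 5 genotypes (x axis); points are libraries, horizontal lines are means and vertical bars are 1 SD to either side. vit-3, vit-4 and vit-5 lie near 0 in wild type and both alg-5 alleles and above them in every alg-2(ok304) and alg-1(gk214) library, while vit-1 is lowest in alg-2(ok304).

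In alg-1(gk214), 5 of the 6 vitellogenin genes rose and none fell, where 6.39% of all tested genes rose and 8.41% fell. As vit-3, vit-4 and vit-5 entered the test only through alg-1(gk214) and alg-2(ok304), this count is a description. vit-5 changed most, to 14.3, 14.7 and 17.1 FPKM. This took it from percentile 22.8 of all genes in wild type to percentile 65.4. Its log2 change was 3.98 ± 0.302 (SE, adjusted p = 2.21e-06). vit-4 reached 6.60, 4.98 and 6.38 FPKM, a log2 change of 2.61 ± 0.363 (SE, adjusted p = 0.000249). vit-3 reached 8.03, 4.28 and 11 FPKM, a log2 change of 2.28 ± 0.371 (SE, adjusted p = 0.000867). Every library of alg-1(gk214) lay above every wild type library for each of these 3 genes, as it did for 13.0% of tested genes. The sum of vit-3, vit-4 and vit-5 was 28.9, 23.9 and 34.5 FPKM against 0.779, 1.35 and 0.551 FPKM in wild type. The size of these changes depends on the constant added before the logarithm: with 0.1 FPKM in place of 1, vit-5 changed by 6.86, vit-4 by 5.0 and vit-3 by 3.21.

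The members that were already present in wild type rose by less. vit-2 was at 13.2, 12.7 and 15.3 FPKM in alg-1(gk214), which is 3.44 times the wild type mean, with a log2 change of 1.57 ± 0.325 (SE, adjusted p = 0.00495). vit-6 was at 66.0, 45.3 and 62 FPKM, 1.97 times the wild type mean, with a log2 change of 0.95 ± 0.261 (SE, adjusted p = 0.0251). For both genes every alg-1(gk214) library lay above every wild type library, and 13.0% of tested genes stood apart in this way. The call of vit-6 was lost when 1 library was left out, with adjusted p = 0.0815 without wild type replicate 3, 0.0866 without alg-1(gk214) replicate 1 and 0.0764 without replicate 3.

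vit-1 stood outside this pattern. Its levels of 5.11, 3.60 and 5.59 FPKM in alg-1(gk214) fell among those of wild type, with a log2 difference of -0.03 (95% interval -0.65 to 0.59, adjusted p = 0.968). That interval leaves out the point estimates of the other 5 genes, but it overlaps the 95% interval of vit-6 (0.39 to 1.51). The genes were not tested against each other, and how fragments were split between vit-1 and vit-2 was not tested. The sum of vit-1 and vit-2 was 18.3, 16.3 and 20.9 FPKM in alg-1(gk214), against 7.45, 10.6 and 8.71 FPKM in wild type. The median change of the 6 genes was 1.93 on the log2 scale, against 0.01 for all tested genes. The 6 genes together summed to 113, 85.5 and 117 FPKM in alg-1(gk214), against 40.5, 44 and 32.7 FPKM in wild type. In whole-worm RNA, fewer cells of a type and less RNA per cell cannot be told apart.

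alg-2(ok304) was collected at the same 49 h as wild type, and there vit-3, vit-4 and vit-5 were the members that passed the test. These 3 of the 6 genes rose and none fell, where 4.87% of all tested genes rose and 7.08% fell. All 3 entered the test only through their levels in alg-1(gk214) and alg-2(ok304), so this count is a description. vit-5 measured 5.36, 6.34 and 10.9 FPKM, a log2 change of 2.99 ± 0.302 (SE, adjusted p = 2.00e-05). vit-4 measured 1.97, 1.57 and 5.39 FPKM, a log2 change of 1.69 ± 0.363 (SE, adjusted p = 0.00704). vit-3 measured 3.59, 2.38 and 5.48 FPKM, a log2 change of 1.45 ± 0.371 (SE, adjusted p = 0.0195). Each of the 3 genes was higher in 3 of 3 alg-2(ok304) libraries than in any wild type library, as 13.0% of tested genes were. Their sum was 10.9, 10.3 and 21.8 FPKM.

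The other 3 genes did not pass the test in alg-2(ok304). vit-2 measured 3.50, 5.99 and 10.7 FPKM, overlapping wild type, with a log2 difference of 0.53 (95% interval -0.17 to 1.23, adjusted p = 0.347). vit-6 measured 24.9, 29.0 and 49.3 FPKM, also overlapping, with a log2 difference of 0.18 (95% interval -0.38 to 0.74, adjusted p = 0.740). vit-1 measured 2.00, 2.08 and 3.75 FPKM, and all 3 libraries lay below the lowest wild type library. Its log2 difference of -0.72 (95% interval -1.34 to -0.10) had an adjusted p of 0.132, and 14.5% of tested genes lay below wild type in every library. The sum of vit-1 and vit-2 was 5.49, 8.07 and 14.4 FPKM, which overlapped wild type.

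Replicate 3 of alg-2(ok304) was the highest of its genotype for 6 of 6 vitellogenin genes. The ratio of the highest to the lowest library in this genotype was 1.88 for vit-1, 3.05 for vit-2, 2.30 for vit-3, 3.42 for vit-4, 2.04 for vit-5 and 1.98 for vit-6. Without that library, vit-5 still rose by 2.73 (adjusted p = 0.000162) and vit-4 by 1.29 (adjusted p = 0.0326), while vit-3 no longer passed (1.21, adjusted p = 0.0899). The difference of vit-6 without it was -0.10. The call of vit-3 was also lost without wild type replicate 3 (adjusted p = 0.0552), without alg-2(ok304) replicate 1 (adjusted p = 0.0556) and with a constant of 0.1 FPKM (adjusted p = 0.0749). With only the libraries of these 2 genotypes in the model, vit-5 alone passed.

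**Figure D2:**
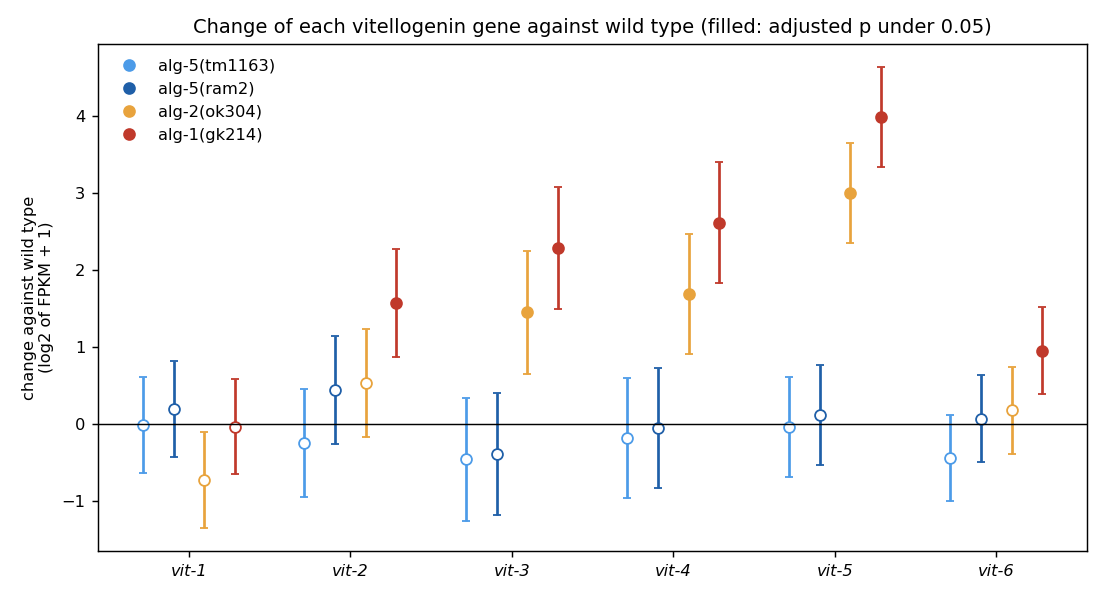
Change of each vitellogenin gene in each mutant against wild type (y axis, log2 of FPKM + 1; points are model estimates and bars 95% intervals; 3 libraries per genotype). Filled points passed an adjusted p of 0.05: vit-2 to vit-6 in alg-1(gk214), vit-3 to vit-5 in alg-2(ok304) and none in the alg-5 alleles.

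Both alg-5 alleles kept the wild type pattern of 1 abundant, 2 low and 3 nearly absent transcripts. In alg-5(tm1163), vit-6 measured 15.2, 25.5 and 24.1 FPKM, with a log2 difference of -0.44 (95% interval -1.0 to 0.12, adjusted p = 0.586). vit-1 measured 4.14, 4.29 and 6.15 FPKM and vit-2 measured 2.86, 2.40 and 4.55 FPKM. None of the 6 genes passed the limma test against wild type, where 0.0857% of tested genes passed in either direction. At an unadjusted p under 0.05 there were 0 of 6, where 10.8% of tested genes had one. vit-3, vit-4 and vit-5 were under 1 FPKM in wild type, which leaves a fall on the log2(FPKM + 1) scale little room. The counts therefore cannot show that these 3 genes did not fall. vit-3 was at 0.00846, 0.224 and 0.559 FPKM in alg-5(tm1163), and vit-4 and vit-5 were listed at 0 in replicates 2 and 3.

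In alg-5(ram2), vit-6 measured 27, 28.6 and 36.8 FPKM and vit-1 measured 4.87, 6.58 and 5.64 FPKM, both overlapping wild type. vit-2 measured 4.80, 6.04 and 6.53 FPKM, and all 3 libraries lay above the highest wild type library, as 5.75% of tested genes did. Its log2 difference of 0.45 (95% interval -0.25 to 1.14) had an adjusted p of 0.820. None of the 6 passed the limma test, where 0.29% of tested genes passed, and 0 of 6 had an unadjusted p under 0.05, where 7.68% of tested genes had one. As in alg-5(tm1163), a fall of vit-3, vit-4 or vit-5 had little room to show. The largest vit-5 value outside alg-1(gk214) and alg-2(ok304) was 0.396 FPKM, in alg-5(ram2) replicate 2, where vit-4 was also at 0.308 FPKM. The 2 alleles did not differ past the test for any member, with 0.0791% of tested genes passing. vit-2 and vit-6 were higher in every alg-5(ram2) library than in any alg-5(tm1163) library, as 6.47% of tested genes were.

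Set against the alg-5 alleles in place of wild type, the genes named above were again higher in both mutants. The same mutant libraries enter these comparisons, so they add no independent support. vit-3, vit-4 and vit-5 entered the test only through alg-1(gk214) and alg-2(ok304), so the counts that follow are descriptions. alg-1(gk214) exceeded alg-5(tm1163) for vit-2 to vit-6, 5 of 6 genes, where 4.01% of tested genes did, with a log2 change of 1.39 for vit-6 and 4.02 for vit-5. It exceeded alg-5(ram2) for 5 of 6 genes (4.96% of tested genes), although the calls of vit-2 (1.12, adjusted p = 0.0395) and vit-6 (0.88, adjusted p = 0.0444) were not stable. Over all alternatives vit-2 lost this call in 9 and kept it in 13, and vit-6 lost it in 11 and kept it in 11. Both lost it when any of the 3 alg-5(ram2) libraries was left out, and without alg-1(gk214) replicate 1 or 3. alg-2(ok304) exceeded alg-5(tm1163) (3.41% of tested genes) and alg-5(ram2) (4.18%) for vit-3, vit-4 and vit-5. vit-1 in alg-2(ok304) lay below every alg-5(ram2) library, as 17.4% of tested genes did, with a log2 difference of -0.92 (adjusted p = 0.0631), and this passed without alg-2(ok304) replicate 3 (-1.13, adjusted p = 0.0418).

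Compared directly, alg-1(gk214) had the higher mean of all 6 vitellogenin genes, but no gene passed the adjusted test. The mean of vit-5 was 15.4 ± 1.55 FPKM (SD, n = 3) in alg-1(gk214) and 7.54 ± 2.97 FPKM (SD, n = 3) in alg-2(ok304), a log2 difference of 0.99 (95% interval 0.34 to 1.64, limma adjusted p = 0.125). For vit-2 the difference was 1.04 (95% interval 0.34 to 1.74, adjusted p = 0.138). The other 4 differences lay between 0.69 for vit-1 and 0.93 for vit-4. Only vit-2 and vit-5 had groups that did not overlap, as 9.87% of tested genes did in that direction. At an unadjusted p under 0.05 all 6 were higher in alg-1(gk214), as were 6.8% of tested genes, while 1.59% passed the adjusted test in either direction. As vit-3, vit-4 and vit-5 entered the test only through these 2 mutants, the count of 6 is a description. These 2 mutants also differ in collection time by design, which cannot be told apart from genotype.

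The make-up of the vitellogenin mRNA differed between these 2 mutants and the rest. As a share of the summed FPKM of the family, vit-3, vit-4 and vit-5 together made up 27.6% ± 1.9 (SD, n = 3) in alg-1(gk214), with libraries from 25.6% to 29.4%. Their share was 24.6% ± 2.5 (SD, n = 3) in alg-2(ok304), from 21.7% to 26.4%, and 1.7% to 3.1% in the wild type libraries. The shares of both mutants thus overlapped each other and lay far from wild type, although the summed level in alg-1(gk214), 105 ± 17.3 FPKM (SD, n = 3), was above the 58.1 ± 23.9 FPKM (SD, n = 3) of alg-2(ok304). vit-6 made up 74.8% ± 4.3 in wild type, 54.7% ± 3.1 in alg-1(gk214) and 59.7% ± 1.9 in alg-2(ok304) (SD, n = 3 each), with no overlap between wild type and either mutant, although its level was not lower in either. vit-1 made up 12.5% of the family's FPKM in wild type and 4.5% in each of these mutants. The share of vit-2 overlapped in all 3 genotypes, with means of 10.5% in wild type, 13.2% in alg-1(gk214) and 11.2% in alg-2(ok304). With 3 libraries against 3 an exact permutation test cannot go below p = 0.1, so the shares are given without a test.

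**Figure D3:**
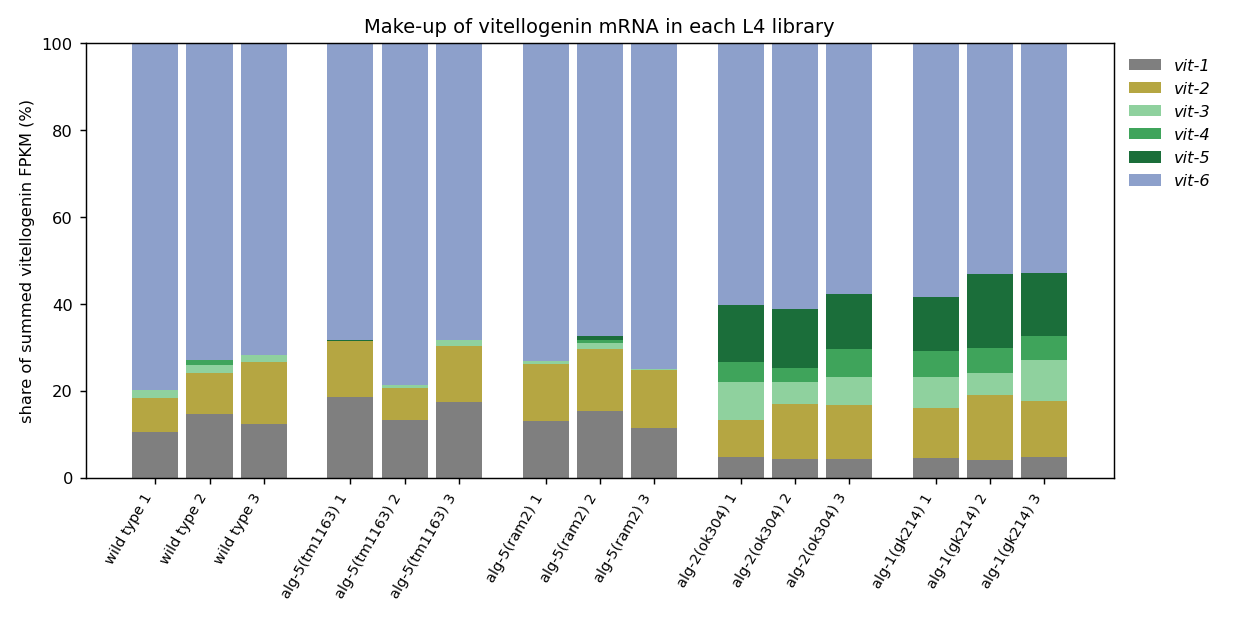
Share of the summed vitellogenin FPKM (y axis, %) held by each of the 6 genes in each of the 15 libraries (x axis, genotype and replicate). The green parts, vit-3 to vit-5, hold 21.7% to 29.4% in the alg-2(ok304) and alg-1(gk214) libraries and at most 3.1% in the wild type libraries.

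The members moved together within genotypes as well as between them, with vit-1 set apart between genotypes but not within them. Over the 15 libraries, the correlation of log2(FPKM + 1) between pairs of members other than vit-1 was 0.74 to 0.98 over 10 pairs, and between vit-1 and each other member -0.38 to 0.18 over 5 pairs. For deviations from the genotype means, the same pairs gave 0.43 to 0.83 without vit-1 and 0.65 to 0.82 with it. These are descriptions of 15 libraries that share 5 genotypes and, for vit-3 to vit-5, similar sequences. Besides alg-2(ok304) replicate 3, alg-1(gk214) replicate 2 was lowest of its genotype for 5 of 6 genes and wild type replicate 3 lowest for 5 of 6.

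Of 20 genes known to act on vitellogenin expression, 3 rose and 3 fell in alg-1(gk214), with a median log2 change of -0.01 against 0.01 for all tested genes, of which 6.39% rose and 8.41% fell. Among the heterochronic members, lin-14, a larval timing factor that the miRNA lin-4 represses, rose from 15.9 ± 3.67 FPKM to 33.5 ± 0.651 FPKM (SD, n = 3 each), a log2 change of 1.06 (adjusted p = 0.00144). lin-41, a let-7 target, rose from 6.75 to 14.5 FPKM (1.01, adjusted p = 0.0127), and daf-12, a nuclear receptor of developmental timing, rose from 13.5 to 26.2 FPKM (0.90, adjusted p = 0.00532). lin-29, which promotes the switch to adult fates, fell from 28.7 ± 1.15 FPKM to 14.9 ± 3.22 FPKM (SD, n = 3 each; -0.92, adjusted p = 0.0046). pqm-1, which encodes a zinc finger protein that acts on vitellogenin genes, fell from 192 to 85.9 FPKM (-1.14, adjusted p = 0.00229), and sgk-1, a kinase downstream of TORC2, fell from 41 to 26.8 FPKM (-0.61, adjusted p = 0.019). The transcripts of lin-29 and of pqm-1 were lower in the same libraries in which vit-2 to vit-6 were higher. pqm-1 was also lower in alg-5(ram2), at a mean of 78.1 FPKM (-1.26, adjusted p = 0.0185), where no vitellogenin gene passed. The part of these regulators in the vitellogenin changes was not tested.

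In alg-2(ok304), 2 of the 20 regulators rose, lin-14 (26.1 FPKM, 0.70, adjusted p = 0.0216) and lin-41 (13.7 FPKM, 0.93, adjusted p = 0.0227). 1 fell, pqm-1 (109 FPKM, -0.80, adjusted p = 0.0226). Over all tested genes 4.87% rose and 7.08% fell in this comparison, and nothing particular to the regulators is read from counts this small. lin-29 was at 19.7 FPKM there, with a difference of -0.55 (adjusted p = 0.0801). No regulator passed in alg-5(tm1163) by the limma test, where 0.0857% of all tested genes passed. An unadjusted p under 0.05 was found for 4 of the 20, against 10.8% of all tested genes. 3 known activators of vitellogenin genes, unc-62, ceh-60 and elt-2, did not pass in either alg-1(gk214) or alg-2(ok304). unc-62, a homeodomain factor, differed by -0.05 and 0.13, its partner ceh-60 by -0.37 and 0.14, and the intestinal GATA factor elt-2 by -0.14 and 0.25, for alg-1(gk214) and alg-2(ok304) in that order. lin-28, a heterochronic RNA-binding protein, differed by -0.24 and -0.20 in the same order. mab-3, which represses vitellogenin genes in males, was at 6.77 ± 5.43 FPKM in wild type and 2.15 ± 0.885 FPKM in alg-1(gk214) (SD, n = 3 each; -1.04, adjusted p = 0.282).

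Of 14 genes for the assembly, secretion and uptake of yolk, 0 rose and 3 fell in alg-1(gk214) by the limma test, with a median of -0.13. Over all tested genes 6.39% rose and 8.41% fell, and nothing particular to this list is read from counts this small. An unadjusted p under 0.05 in either direction was found for 6 of the 14. The share over all tested genes at that level is not given here. Members with higher means that did not pass were lrp-2, a lipoprotein receptor-related gene, at 14.2 to 21.9 FPKM in wild type and 24.9 to 28.9 FPKM in alg-1(gk214) (0.56, adjusted p = 0.0731), and cav-1, a caveolin gene, at a mean of 0.026 FPKM in wild type, 1.97 FPKM in alg-1(gk214) (1.29, adjusted p = 0.118) and 1.75 FPKM in alg-2(ok304) (1.35, adjusted p = 0.117). cpl-1, a cathepsin L protease needed for yolk processing, fell from 1361 ± 221 FPKM to 682 ± 35.6 FPKM (SD, n = 3 each; -0.98, adjusted p = 4.09e-05). dsc-4, the microsomal triglyceride transfer protein homolog that loads lipid onto lipoproteins, fell from 118.8 to 94.6 FPKM (-0.33, adjusted p = 0.0472), and rme-1, an endocytic recycling protein, fell from 157 to 132 FPKM (-0.24, adjusted p = 0.0433). In alg-2(ok304), cpl-1 was the 1 gene of the list to pass, at 795 FPKM (-0.76, adjusted p = 0.000371). rme-2, the yolk receptor of oocytes, measured 14.8, 10.8 and 11.6 FPKM in wild type, 14.6, 13.4 and 16.1 FPKM in alg-1(gk214) and 10.2, 8.21 and 8.22 FPKM in alg-2(ok304). It did not pass in either mutant (0.24, adjusted p = 0.525, and -0.43, adjusted p = 0.24).

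Markers of stage and of other tissues moved in the same libraries, and their part in the vitellogenin changes was not tested. The collagen col-19, which marks adult hypodermis, rose from 0.215, 3.37 and 0.188 FPKM in wild type to 60.6, 45.2 and 46.6 FPKM in alg-1(gk214) (4.80, adjusted p = 1.03e-05) and 31.1, 23.7 and 42.7 FPKM in alg-2(ok304) (4.14, adjusted p = 3.56e-05). The strut collagens of the adult cuticle went the other way. bli-1 fell from 490 ± 30.7 FPKM in wild type to 15.8 ± 8.89 FPKM in alg-1(gk214) and 31.4 ± 9.86 FPKM in alg-2(ok304) (SD, n = 3 each), and bli-2 and bli-6 fell in both as well. Of the 6 genes of this adult cuticle list, 5 were tested, and the same count of 1 rose and 3 fell in each mutant. For this and the lists that follow, the shares over all tested genes were 6.39% higher and 8.41% lower in alg-1(gk214), and 4.87% higher and 7.08% lower in alg-2(ok304). alg-5(tm1163) and alg-5(ram2) had no call in this list by the limma test, where 0.0857% and 0.29% of all tested genes passed. There were 1 and 0 of the 5 tested genes at an unadjusted p under 0.05, against 10.8% and 7.68% of all tested genes.

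No marker of the intestine, which makes yolk protein, passed as higher in either mutant. In alg-1(gk214), 0 of 15 intestinal markers rose and 9 fell, with a median of -0.52, and their summed level was 8571 to 8862 FPKM against 12814 to 15190 FPKM in wild type. lys-4, an intestinal lysozyme gene, fell from 1227 to 341 FPKM (-1.85, adjusted p = 2.5e-06), fat-7, a fatty acid desaturase gene, from 253 to 104 FPKM (-1.26, adjusted p = 0.000172), and cpr-6, a cathepsin B gene, from 702 to 327 FPKM (-1.08, adjusted p = 4.75e-05). In alg-2(ok304), 0 rose and 4 fell, with a median of -0.15 and a sum of 10157 to 12264 FPKM. Hypodermal markers gave 1 higher and 7 lower of 10 in alg-1(gk214), with wrt-2 at -1.64 and mlt-10 at -1.59 beside bli-1 and elt-3 as the 1 that rose (0.79), and 0 higher and 5 lower in alg-2(ok304). In alg-1(gk214), where 9 of 15 intestinal markers fell, 5 of 6 vitellogenin genes rose. In alg-2(ok304) the counts were 4 of 15 and 3 of 6.

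Germline markers were counted by cell type, and their part in the vitellogenin changes was not tested. Of 17 oocyte and eggshell genes, 3 rose and 0 fell in alg-1(gk214), with a median of 0.50. These were perm-2 (4.69 to 21.3 FPKM, 2.00, adjusted p = 0.00789) and perm-4 (2.37 to 7.67 FPKM, 1.41, adjusted p = 0.0191), which encode proteins of the eggshell permeability barrier, and spn-4 (29.8 to 42.4 FPKM, 0.50, adjusted p = 0.0325), an RNA-binding protein of oocytes and early embryos. No gene of that list passed in alg-2(ok304) by the limma test, and the median was 0.02. An unadjusted p under 0.05 was found for 1 of the 17, and the share over all tested genes at that level is not given here. Of 13 sperm genes, 0 rose and 7 fell in alg-1(gk214), among them msp-3 (-1.78), msp-142 (-1.55) and msp-81 (-1.44), and 0 rose and 9 fell in alg-2(ok304). msp-10 (-1.75, adjusted p = 0.0452) and msp-81 (-1.28, adjusted p = 0.016) fell in alg-5(tm1163), where no vitellogenin gene passed. The list summed to 435 to 659 FPKM in alg-1(gk214), 249.6 to 277 FPKM in alg-2(ok304) and 1131 to 1267 FPKM in wild type. In the embryo list 2 of 10 genes were tested. nos-2, which is made in the germline and acts in embryos, rose from 0.0182 to 4.42 FPKM in alg-1(gk214) (2.39, adjusted p = 0.000589), and the list's sum was 9.87 to 11.08 FPKM against 2.01 to 8.87 FPKM. That sum includes elt-6, at means of 5.85 FPKM in alg-1(gk214) and 4.98 FPKM in wild type.

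The genes most like the family were found by correlation with the mean log2(FPKM + 1) of the 6 members among 11928 genes of at least 5 FPKM in 1 genotype. Over the 15 libraries these were ule-3 (r = 0.98), Y37D8A.19 (0.97), ZK813.7 (0.96), col-143 (0.96), C44B7.5 (0.95) and col-119 (0.95). As they were chosen for this pattern, their levels are a description. ule-3, named for its expression in the uterine lumen, was at most 0.0965 FPKM in wild type, at 25.8, 21.3 and 29.8 FPKM in alg-1(gk214) and at 3.07, 4.65 and 7.94 FPKM in alg-2(ok304). col-119, a cuticle collagen gene, was at most 0.454 FPKM in wild type, at 71.7 ± 15.6 FPKM (SD, n = 3) in alg-1(gk214) and at 25.2, 15.7 and 55.5 FPKM in alg-2(ok304). Like vit-5, both were highest in alg-2(ok304) replicate 3 within that genotype.

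For deviations from the genotype means, other genes were most like the family: such-1 (r = 0.88), a subunit of the anaphase-promoting complex, tsen-34 (0.86), a tRNA splicing endonuclease subunit, mnp-1 (0.86) and Y22D7AL.11 (0.85). Of these, mnp-1 also followed the family over the 15 libraries (0.94), at 6.26 ± 0.865 FPKM in wild type, 10.2 ± 1.03 FPKM in alg-1(gk214) and 8.19 ± 2.24 FPKM in alg-2(ok304) (SD, n = 3 each). The r of such-1 over the 15 libraries was -0.14. These genes were the highest of 11928 ranked, and their r within genotypes is given as a description of that choice.

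**Figure D4:**
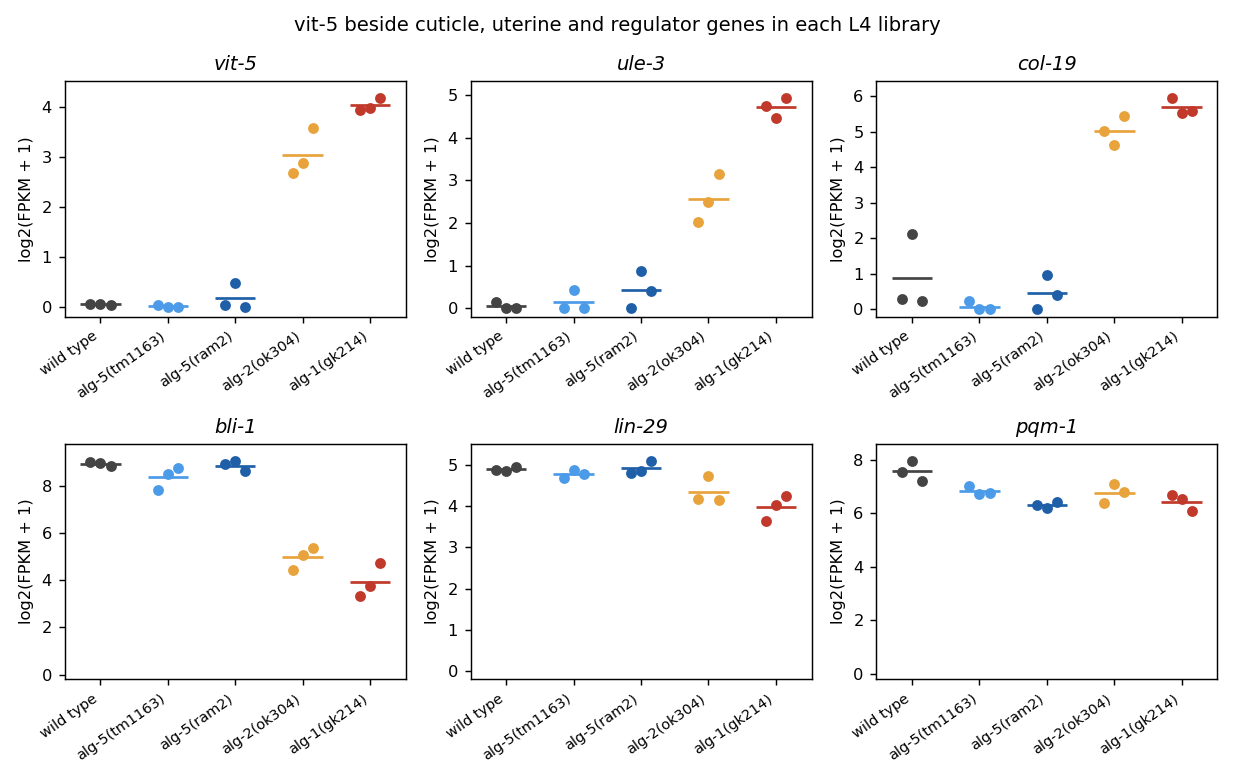
log2(FPKM + 1) (y axis, a scale of its own for each gene) of vit-5, ule-3, col-19, bli-1, lin-29 and pqm-1 in each library of 5 genotypes (x axis); points are libraries and lines are means. vit-5, ule-3 and col-19 are high in every alg-2(ok304) and alg-1(gk214) library, where bli-1 is lowest, while pqm-1 is lower than wild type in alg-5(ram2) too.

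Small RNAs gave a separate readout of the family. CSR-1 siRNAs are short antisense RNAs bound by the Argonaute CSR-1, mostly against germline transcripts, and the deposited table of 3640 entries held a row for vit-1 and a row for vit-2. The other 4 genes had none there, and no member had a row among the 2434 entries of the Mutator siRNA table. Values are RPM, reads scaled to the size of the library, and each condition is 1 library, apart from 3 wild type adults, so none is tested. Reads were recovered from the steps of the piRNA values, and the 95% Wilson intervals cover counting error alone, because PCR copies were not marked. Libraries held 1622092 to 24518714 reads.

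In the 1st experiment wild type adults held 67.5 RPM against vit-1 and 137 RPM against vit-2. In the 2nd, wild type adults held 82.1 and 224 RPM, alg-1(gk214) adults 34.8 and 103 RPM, and alg-2(ok304) adults 128 and 355 RPM, for vit-1 and vit-2 in that order. Within that experiment the alg-1(gk214) library was lowest and the alg-2(ok304) library highest for both genes. For vit-2 the intervals were 92.1 to 115 RPM in alg-1(gk214), 202 to 248 RPM in wild type and 330 to 382 RPM in alg-2(ok304), which do not overlap, but no spread between libraries of 1 genotype is known there. At 355 RPM vit-2 ranked 17 of 3640 entries.

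The 3rd experiment stood apart. Its wild type adults held 4.20 RPM against vit-1 (95% interval 3.00 to 5.80) and 3.34 RPM against vit-2 (2.31 to 4.82), from 35 and 28 reads. The alg-5(tm1163) adults of that experiment held 2.42 RPM (1.59 to 3.71) and 3.05 RPM (2.05 to 4.41), which overlaps their wild type for both genes. The HA::ALG-5 input of that experiment, from adults that carry alg-5(tm1163) and a tagged alg-5 transgene, held 58.2 and 124 RPM. The low values were thus not shared by every library of the 3rd experiment. The summed CSR-1 table was no lower in the 2 low libraries, at 202062 RPM in wild type adult 3 and 203128 RPM in alg-5(tm1163), against 100099 and 115094 RPM in wild type adults 1 and 2. vit-2 lay at percentile 5.7 and 5.3 of the table in those 2 libraries and at percentile 94.6 to 99.6 in the other adult libraries that were no immunoprecipitate. Per the labels' protocols, either of a pair of enzymes was used to make siRNAs ligatable, without saying which library had which, and its part in these low values was not tested.

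Among 5773 siRNA entries with at least 5 RPM in a wild type adult, vit-2 had the lowest log2 difference between wild type adult 3 and the mean of adults 1 and 2, at -5.56. asp-1 followed at -4.18, vit-1 at -4.0 and mnk-1, a kinase gene, at -2.99, while the median entry was at 0.50. This ranking was drawn up after the low values had been seen. asp-1 is an intestinal gene, and in the mRNA data it was the most abundant of the 15 intestinal markers in wild type. Wild type adults alone ran from 3.34 to 224 RPM for vit-2 and from 4.20 to 82.1 RPM for vit-1. Of the adult mutants, alg-1(gk214) lay inside this range for both genes, alg-2(ok304) above it and alg-5(tm1163) below it, each as a single library.

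In late L4 larvae the siRNAs were fewer than in most adults. All L4 libraries came from the 4th experiment and all adults from the other experiments, so stage and experiment cannot be told apart. The summed CSR-1 table was lower too, at 51466 RPM in wild type L4 larvae against 100099 to 202062 RPM in wild type adults. Wild type held 16.4 RPM against vit-1 and 33.7 RPM against vit-2, and alg-5(ram2) of the same experiment 5.70 and 10.9 RPM. The counting intervals for vit-2 were 31.4 to 36.3 RPM and 9.61 to 12.4 RPM. The GFP::ALG-5 input, from larvae with alg-5 tagged at its own locus, held 10.8 and 21.4 RPM, between the other 2. vit-2 siRNAs exceeded vit-1 siRNAs by 1.71 to 2.95 times in all libraries but the 2 low ones of the 3rd experiment, where the ratio was 0.79 in wild type and 1.26 in alg-5(tm1163). Reads that match several entries are shared between them, and how far this shaped the ratio was not tested.

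**Figure D5:**
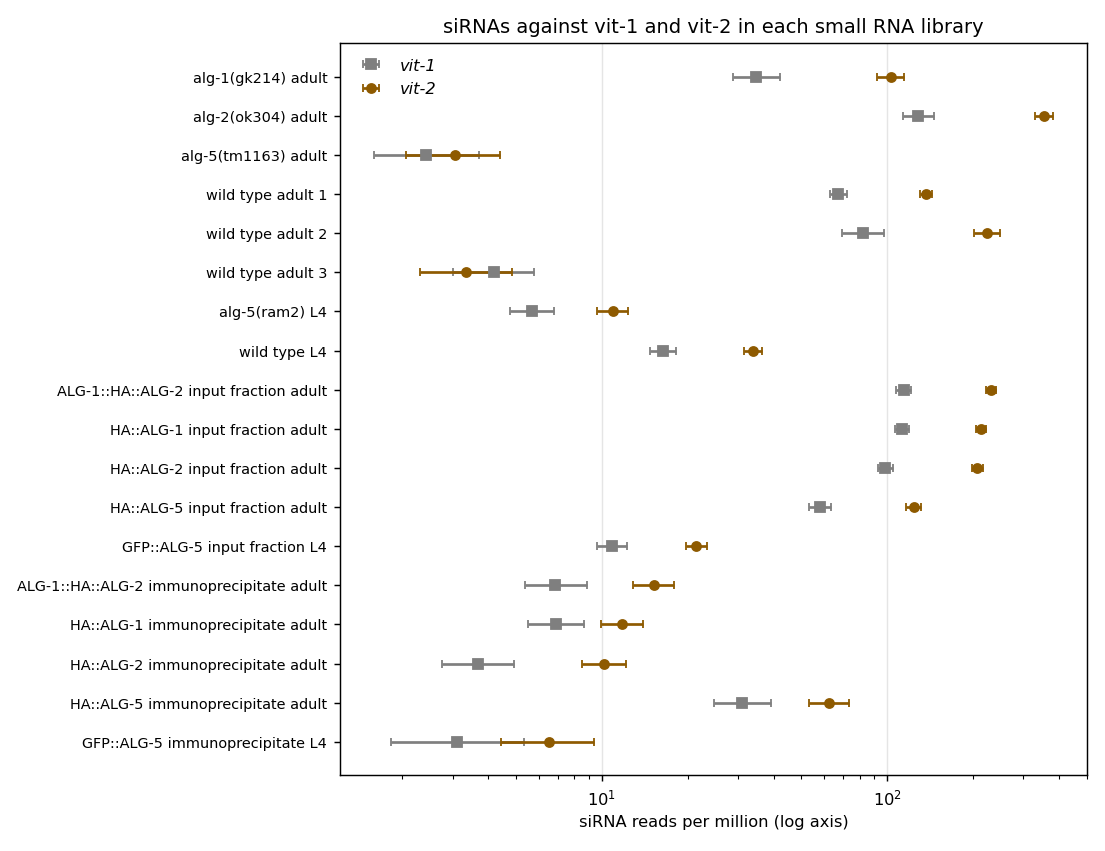
siRNA RPM (x axis, log scale) against vit-1 (squares) and vit-2 (circles) in each of the 18 small RNA libraries (y axis); bars are 95% Wilson intervals from recovered reads and cover counting error only. Wild type adult 3 and alg-5(tm1163) lie at 2.42 to 4.20 RPM, and among the other adult libraries HA::ALG-2 immunoprecipitate alone, at 3.69 RPM for vit-1, comes as low, and vit-2 is above vit-1 in every library except wild type adult 3.

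Tagged Argonautes were precipitated from adults carrying the transgene alg-1::HA::alg-1 or alg-1::HA::alg-2 in alg-1(gk214), alg-2::HA::alg-2 in alg-2(ok304) or alg-5::3xHA::alg-5 in alg-5(tm1163), and from L4 larvae in which the alg-5 locus, as the allele ram-1, carries GFP::3xFLAG with a loxP site. Inputs of the HA::ALG-1, HA::ALG-2 and ALG-1::HA::ALG-2 strains held 112, 98.4 and 114 RPM against vit-1 and 213, 207 and 231 RPM against vit-2, above the wild type of the 1st experiment for both genes. Immunoprecipitates held fewer of these siRNAs than their inputs, and fewer than the table as a whole. For HA::ALG-1 the ratio of immunoprecipitate to input was 0.0613 for vit-1 and 0.0554 for vit-2, against 0.24 for the summed table. For HA::ALG-2 it was 0.0375 and 0.0492 against 0.134, and for ALG-1::HA::ALG-2 it was 0.0602 and 0.0657 against 0.154. HA::ALG-5 kept more, 0.532 and 0.506 against 0.801, and GFP::ALG-5 in L4 larvae 0.287 and 0.304 against 0.45. The median entry of the table had a ratio of 0.175 for HA::ALG-1, 0.107 for HA::ALG-2, 0.127 for ALG-1::HA::ALG-2, 0.794 for HA::ALG-5 and 0.459 for GFP::ALG-5, so in 4 of 5 constructs it too lay under the summed table. Both vitellogenin genes lay under the median entry for all 5 constructs, each of which is 1 pair of libraries. The share of entries with a lower ratio than vit-1 or vit-2 was 2.22% to 13.8% for the 4 HA constructs, and 23.0% and 26.0% for GFP::ALG-5.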

How the data were processed

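Per the submitters' processing notes the series used Trimmomatic 0.35, TopHat2, HTSeq, DESeq2 and Cuffdiff, with roles and genome build not given in the sources used here. Per the labels' protocols, RiboZero removed ribosomal RNA and dUTP kept the strand. The mRNA values were deposited as FPKM per gene and library, estimated by the authors with Cuffdiff, per the name of the deposited sheet. The small RNA tables were deposited as RPM, with reads shared between entries where they match several.

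A gene was tested where the mean of any genotype reached 1 FPKM. limma 3.58.1 in R 4.3.3 was fitted to log2(FPKM + 1) with a mean-variance trend and the 15 libraries together, leaving 10 residual degrees of freedom, with Benjamini-Hochberg adjustment over all 15174 genes. The 10 comparisons are all pairs of 5 genotypes. The script was tested on simulated data. DESeq2 needs counts and was not run on FPKM. siRNA reads are fractional and were rounded for the Wilson intervals. Among the lower nonzero piRNA values of each library, 99.0% to 99.7% were whole reads within 0.02, and higher values were left out of this check. Sequence names were paired with symbols through RefSeq. vit-6 is K07H8.6 in the mRNA table and in RefSeq.

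Named genes are the 6 members, the 6 and 4 genes most like them, up to 3 genes per list with the largest change among those that passed the test in alg-1(gk214), and 9 regulators or receptors whatever their result. daf-12, sgk-1, bli-2, elt-3, msp-10, lrp-2, cav-1, asp-1 and mnk-1, beyond that rule, were named after their values were seen. Members and lists were chosen with earlier results of these data known. Alternatives were another pseudocount, no filter, no trend, fewer genotypes, other scalings, a replicate block and each library left out.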

Additional observations from a re-analysis of the deposited data

How the results depend on the processing

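Against wild type, the counts of vitellogenin genes passing were 5 in alg-1(gk214) and 3 in alg-2(ok304) under both other scalings, without the filter on low values and without the trend. With only the compared genotypes in the model, alg-2(ok304) kept 1 of its 3. Without the trend, 1 gene, vit-5, passed between alg-1(gk214) and alg-2(ok304) (adjusted p = 0.0491). alg-1(gk214) against alg-5(ram2) kept 3 of 5 without the filter. Leaving out 1 library gave 4 to 5 for alg-1(gk214) and 2 to 3 for alg-2(ok304) against wild type, 3 to 5 for alg-1(gk214) and 3 to 4 for alg-2(ok304) against alg-5(ram2), 5 to 5 and 3 to 3 against alg-5(tm1163), and 0 to 0 in the other 4 comparisons. The replicate numbers do not pair the libraries: deviations of 30 same-numbered pairs correlated at -0.0255 to 0.0904. With the replicate number as a block, 5 genes in alg-1(gk214) and 3 in alg-2(ok304) still passed against wild type, as did 2458 and 1943 genes in all, against 2245 and 1814 without it. Of the changes of single genes, 1255 kept their direction and their side of the threshold, 30 lost the threshold, 3 passed it and 23 changed sign, all of them values that did not pass.

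The changes of sign, all small, came as follows, with the lowest and highest log2 difference when 1 library was left out. Against wild type, vit-1 in alg-1(gk214) ran from -0.14 to 0.15, and vit-6 in alg-2(ok304) from -0.10 without its replicate 3 to 0.37. vit-1 in alg-5(tm1163) ran from -0.16 to 0.17, and was 0.000199 with median scaling and 0.040 with quantile normalization. In alg-5(ram2), vit-4 ran from -0.17 to 0.12, vit-5 from -0.032 to 0.21 (-0.21 with quantile normalization) and vit-6 from -0.073 to 0.16. Against alg-5(tm1163), vit-1 in alg-1(gk214) ran from -0.13 to 0.13, and vit-3 in alg-5(ram2) from -0.085 to 0.23 (-0.10 with quantile normalization). Against alg-5(ram2), vit-2 and vit-6 in alg-2(ok304) ran from -0.27 to 0.42 and from -0.18 to 0.30, lowest without replicate 3. Except where an alternative tests fewer libraries, the cause was not tested. The mRNA read depth is unknown, so how far it limits vit-4 and vit-5 near 0 FPKM cannot be given.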
